A study of Oncorhynchus mykiss with 12 samples.

Results

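The comparison described here sets the liver of rainbow trout given a meal without carbohydrate (refed noCHO) against the liver of fasted trout, for every microRNA (miRNA) sequence of the deposited count table that passed a count filter, by family and by strand. It uses 8 of the 12 libraries of the series, 4 per group and 1 per fish, and 340 of the 1696 sequences in the table. The tested sequences were 291 with known miRNA names and 49 predicted candidates, and together they held 99.87% of all counts. All fish were wild-type adults of the strain labelled Walbaum, and small RNA of 15 to 50 nt from whole liver was sequenced. The fasted fish (numbers 7, 8, 10 and 13) had gone 4 days without food, and the noCHO fish (numbers 20, 21, 31 and 33) belonged to a group labelled as acutely refed with no carbohydrates. The third group of the series, acutely refed with high carbohydrates, entered the statistical fit to help estimate the spread between fish. It also entered the count filter and the scaling, and 1 of its libraries held just 197684 counts. With only the 2 groups compared here, 325 sequences were tested and 0 were called. Neither the time from meal to sampling nor the make-up of the meal was known here. Values of single fish are given in the order of the fish numbers above.

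A miRNA is cut from a hairpin precursor, and either strand of the hairpin, called the 5p and the 3p arm, can be loaded into the Argonaute protein. The loaded strand finds messenger RNAs mainly through its seed, bases 2 to 8 from the 5′ end, so sequences that share a seed tend to have overlapping targets. Families here are sequences whose names carry the same number, with both arms summed, so a family can hold more than 1 seed and a seed can occur in more than 1 family. In vertebrate liver miR-122 is the dominant hepatocyte miRNA and is known in mice for its part in lipid and cholesterol metabolism, while let-7 is a large conserved family tied in mice to differentiation and glucose metabolism.

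The sequences below carry the differences described in the following paragraphs. They are printed 5′ to 3′ as deposited, with T for U and the seed in capitals, and the authors' marks in the names give length or base differences from the named reference. The first 9 are the let-7 sequences of the 5p arm above 100 CPM (CPM is the count scaled to a common library size, here after TMM, a correction for differences in library make-up), which share 1 seed and differ only after it. Against dre-let-7a, counting from 1 at the 5′ end, fru-let-7e differs by G12A and T16A, dre-let-7g by G12T, and dre-let-7c-5p_1ss19GC by A19C.
dre-let-7a: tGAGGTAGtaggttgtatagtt
fru-let-7e: tGAGGTAGtagattgaatagtt
hhi-let-7j: tGAGGTAGttgtttgtacagtt
dre-let-7g: tGAGGTAGtagtttgtatagtt
dre-let-7b: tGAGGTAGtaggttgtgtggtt
fru-let-7h: tGAGGTAGtaagttgtgttgtt
dre-let-7i: tGAGGTAGtagtttgtgctgtt
dre-let-7c-5p_1ss19GC: tGAGGTAGtaggttgtatcgtt
dre-let-7d-5p: tGAGGTAGttggttgtatggtt
The next are the main 5p and 3p sequences of the miR-122 hairpins, followed by the short sequence listed under miR-7550.
dre-miR-122_R-1: tGGAGTGTgacaatggtgttt
ssa-miR-122-2-3p_1ss10AT: aACGCCATtttcacactaaata
ipu-miR-7550_L-1R-1: tCCGGCTCgaaggacc
The last are sequences that were lower in most noCHO fish. The first pair comes from opposite arms of miR-101 and has different seeds, and the second pair, miR-222 and miR-221, shares a seed. The final pair is the main 5p sequence of miR-146 and that of miR-29.
fru-miR-101b_2ss21AC22GT: tACAGTACtatgataactgact
ola-miR-101b-5p: tCAGTTATcatggtaccggtgct
ssa-miR-222a-3p_R-1: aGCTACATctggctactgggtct
fru-miR-221_R-1: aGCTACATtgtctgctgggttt
ssa-miR-146a-5p: tGAGAACTgaattccatagatgg
ssa-miR-29b-2-5p_L-2: aCTGATTTcctctggtgtttaga

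The 8 libraries held 694063 to 3057706 miRNA counts, and 1 CPM was 0.694 counts in the shallowest. They fall into sets by the share of dre-let-7c-5p_1ss19GC among this sequence and dre-let-7a. This share was 0.942 to 1.42% in library set 1, which holds every fasted fish together with noCHO fish 20 and 21. In set 2, with noCHO fish 31 and 33, it was 3.56 and 3.45%. The labels name no batch, and whether the sets reflect the libraries or the fish was not tested. The difference with the set as a term is given beside the main one for the lists and for miR-122, let-7, miR-7550, miR-101, miR-29, miR-146 and miR-21. It is not given for every other family. Every high-carbohydrate library is in set 2 (shares of 3.32 to 3.81%), so only the noCHO group spans both sets. The set effect is then estimated within the noCHO fish alone. The difference with the set as a term thus rests on noCHO fish 20 and 21 against the fasted fish. It is close to that within set 1 alone and is not a correction over all 8 fish. As in any bulk tissue, fewer cells of a type and less of an RNA per cell cannot be told apart. The p-values of the main fits measure the spread between single fish in every group of the series. In the noCHO group that spread includes any difference between the library sets.

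No single sequence passed the test of noCHO against fasted liver in edgeR's quasi-likelihood test, with 0 of 340 called (0.0%) at a threshold of 0.05 on the adjusted p, whose lowest value was 0.174. At an unadjusted p under 0.05, 18 sequences (5.29%) were higher and 5 (1.47%) were lower in noCHO fish. This split was 23 higher and 17 lower with the library set as a term, and 21 higher and 23 lower within set 1, where 0 were called as well. DESeq2 called 2 (0.588%), both higher: the 16-nt ipu-miR-7550_L-1R-1 and the let-7 sequence dre-let-7c-5p_1ss19GC. edgeR called these 2 when noCHO fish 20 was left out. In 12 sequences (3.53%) the lowest noCHO fish was above the highest fasted fish, and in 2 (0.588%) the highest noCHO fish was below the lowest fasted fish. Over all tested sequences 178 were higher and 162 lower, with a median log2 difference of 0.02. Scaling to the library total instead of TMM moved that median to −0.17 and the split at an unadjusted p under 0.05 to 6 higher and 11 lower, so differences here are relative to the bulk of the sequences.

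miR-122 was the most abundant family and was higher in each noCHO fish than in any fasted fish. Its share of all miRNA counts was 27.3, 27.9, 26.9 and 28.9% in the fasted fish and 36.0, 34.1, 31.2 and 30.5% in the noCHO fish. The groups do not overlap, and fish 20 and 21 of library set 1 had the higher shares among the noCHO fish. The mean share was 27.7 ± 0.884% in fasted and 33.0 ± 2.56% in noCHO fish (SD, n = 4 each; p = 0.0286 in a two-sided exact permutation test, which cannot go lower with 4 fish a group, and 0.286 adjusted over the 10 composition measures). Summed over both arms, the family stood at 270025, 235880, 254290 and 263413 CPM in fasted and 399987, 296561, 321836 and 318673 CPM in noCHO fish. The log2 difference was 0.39 (SE 0.15), with an unadjusted p of 0.0284 and an adjusted p of 0.864 in edgeR over all families, so it did not pass. With the library set as a term it was 0.44, and leaving out each fish gave 0.29 to 0.45.

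All 4 tested miR-122 sequences were higher on average in noCHO fish, on both arms. Here and below, TMM was computed separately for sequences and for families. Their CPM scales therefore differ, and a sequence can stand above its own summed family in a fish. The main 5p sequence, dre-miR-122_R-1, stood at 256823, 229417, 247845 and 270328 CPM in fasted and 435270, 292195, 310809 and 336227 CPM in noCHO fish, again without overlap (log2 0.45, SE 0.19, adjusted p = 0.598 in edgeR). Its counterpart from the 3p arm, ssa-miR-122-2-3p_1ss10AT, had 2703, 2528, 2885 and 2425 CPM in fasted and 3589, 2833, 3785 and 3351 CPM in noCHO fish (log2 0.36, SE 0.19, unadjusted p = 0.0784). Only noCHO fish 21 fell inside the fasted range of this sequence. The 5p arm made up 98.9 ± 0.111% of the family's counts in fasted and 99.0 ± 0.168% in noCHO fish, and its log2 ratio to the 3p arm differed by 0.06 (SE 0.23) in limma.

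**Figure D1:**
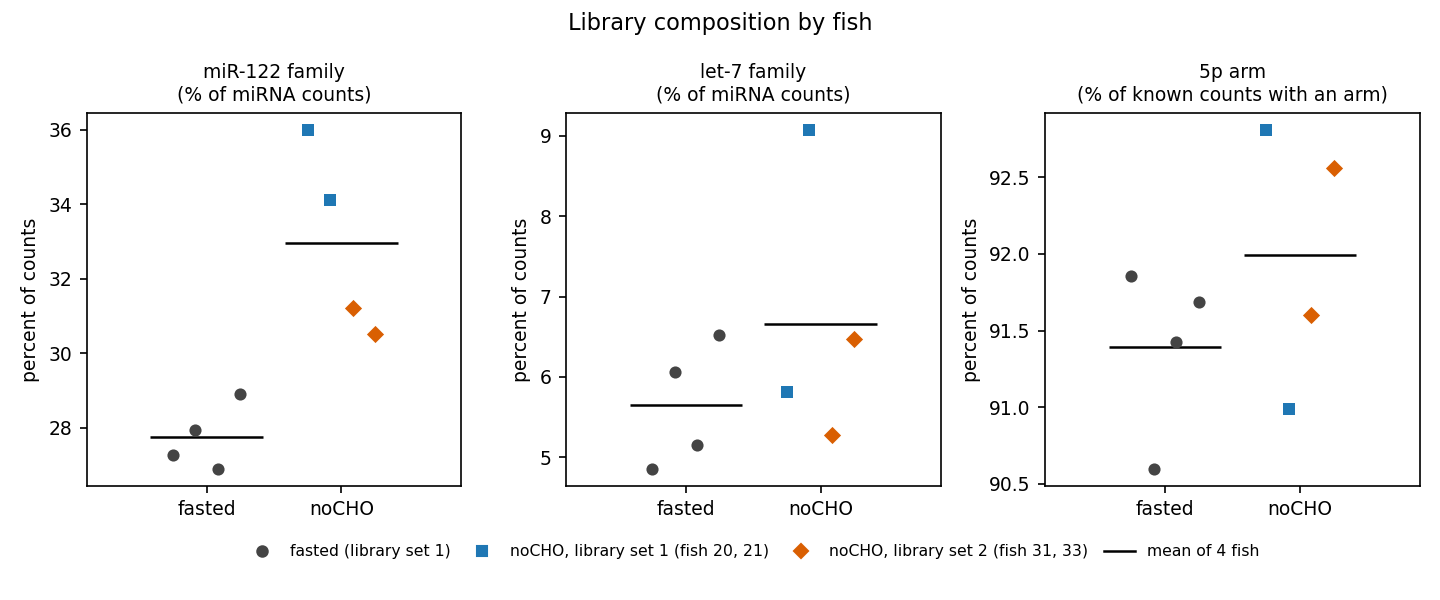
Share of all miRNA counts in the miR-122 family (left) and in the let-7 family (middle), and share of the 5p arm among known sequences with an arm (right), in percent, for each of 4 fasted and 4 noCHO fish; lines are group means and the axes do not start at 0. The miR-122 share of every noCHO fish lies above that of every fasted fish, while the other shares overlap.

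The let-7 family was higher on average in noCHO fish as well, although no member passed the test in edgeR. Its summed level was 48121, 51208, 48761 and 59421 CPM in fasted and 64560, 78888, 54469 and 67610 CPM in noCHO fish. Only noCHO fish 31 lay within the fasted range. The log2 difference of the family was 0.36 (SE 0.14; unadjusted p = 0.0303, adjusted p = 0.864 in edgeR). It was 0.47 with the library set as a term, 0.49 without fish 31 and 0.26 without noCHO fish 21. The sets were divided by let-7 sequences, so the value with the set is no separate check on this family. As a percent of all counts, without TMM scaling, let-7 made up 5.65 ± 0.774% in fasted and 6.66 ± 1.68% in noCHO fish (SD, n = 4 each; two-sided exact permutation p = 0.371), and noCHO fish 21 alone stood above the fasted fish at 9.07%.

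Of the 22 tested let-7 sequences 19 were higher and 3 lower in noCHO fish, with a median log2 difference of 0.32, beside 0.02 over all tested sequences. By arm, 11 of 12 sequences of 5p and 8 of 10 of 3p were higher, with medians of 0.42 and 0.21. Over all families 18 of 340 sequences (5.29%) were higher at an unadjusted p under 0.05. Of these 18, 9 were let-7, which held 22 of the 340 tested. They include dre-let-7c-5p_1ss19GC, which defines the library sets. The let-7 members differ by few bases and are not separate support for each other. With the library set as a term the median of the 22 sequences was 0.45, within set 1 it was 0.46, with scaling to the library total it was 0.16, and without noCHO fish 21 it was 0.12. Because let-7 sequences divided the sets, the medians with the set and within set 1 are no separate check on let-7.

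In 4 let-7 sequences of the 5p arm the groups did not overlap, beside the 12 of all 340 (3.53%) in which every noCHO fish was above every fasted fish. fru-let-7e had 6704, 6820, 7228 and 8360 CPM in fasted and 12311, 12966, 8902 and 11338 CPM in noCHO fish (log2 0.64, SE 0.20, unadjusted p = 0.00729). dre-let-7g had 3543, 3963, 4647 and 5291 CPM in fasted and 6922, 6672, 5462 and 6870 CPM in noCHO fish (log2 0.57, SE 0.19, unadjusted p = 0.00972). Fish 31 was the lowest of the noCHO fish in both. hhi-let-7j was at 5673, 6001, 6527 and 7664 CPM in fasted and 8421, 8472, 7799 and 8941 CPM in noCHO fish (log2 0.38, SE 0.16, unadjusted p = 0.0375). These 3 sequences share the seed of let-7a and differ from it at or after base 10.

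The fourth, dre-let-7c-5p_1ss19GC, had the lowest p of all sequences and is also the sequence that defines the library sets. It stood at 319, 281, 296 and 411 CPM in fasted and 451.29, 617, 938 and 1348 CPM in noCHO fish (log2 1.36, SE 0.29, unadjusted p = 0.000512, adjusted p = 0.174 in edgeR). The fish of set 2 (31 and 33) were the highest, and fish 20 and 21 still lay above every fasted fish. With the set as a term the difference was 0.71, but the sets were divided by this sequence's own share, so that value is no separate check on it. As a share of itself and dre-let-7a, the same sequence was at 1.17 and 1.42% in noCHO fish 20 and 21 against 0.942 to 1.21% in fasted fish.

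Other let-7 sequences overlapped between the groups. dre-let-7a, the most abundant, was at 26093, 29505, 25827 and 34762 CPM in fasted and 37980, 42700, 25387 and 37732 CPM in noCHO fish (log2 0.31, SE 0.18, unadjusted p = 0.106, and 0.15 without noCHO fish 21), and fish 31 was the lowest of all 8. dre-let-7i had 662, 646, 548 and 949 CPM in fasted and 1128, 1504, 805 and 1291 CPM in noCHO fish (log2 0.75, SE 0.25, unadjusted p = 0.0100). Here too only fish 31 lay within the fasted range. fru-let-7h was at 1066, 1022, 1125 and 1396 CPM in fasted and 1383, 1731, 1597 and 1657 CPM in noCHO fish (log2 0.47, SE 0.17), where fish 20 lay just under the highest fasted fish. On the 3p arm, pol-let-7a-3p_R+1_1ss3AG had 132, 58.6, 82.1 and 113 CPM in fasted and 114, 267, 207.6 and 162 CPM in noCHO fish (log2 0.96, SE 0.30, unadjusted p = 0.00749), and fish 20 was inside the fasted range. The most abundant 3p sequence, ssa-let-7h-3p, overlapped fully (log2 0.02, SE 0.18). The single 5p sequence that was lower, dre-let-7f, had 6.19 to 19.2 CPM in fasted and 2.26 to 12.2 CPM in noCHO fish. Members of this family differ by few bases, and how the authors divided reads among them is uncertain.

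**Figure D2:**
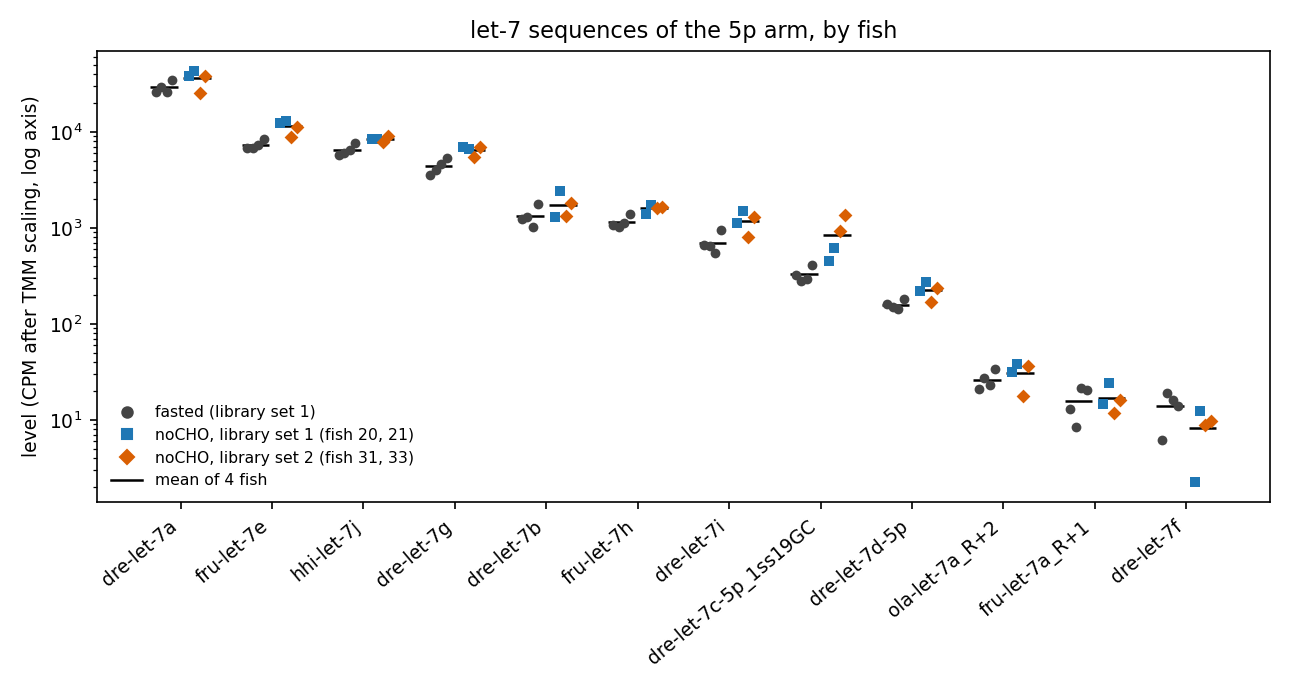
Level of the 12 tested let-7 sequences of the 5p arm in each fish (CPM after TMM scaling, log axis), ordered by abundance; circles are fasted fish, squares noCHO fish 20 and 21, diamonds noCHO fish 31 and 33, and lines the mean of 4 fish. The noCHO fish lie above the fasted fish in fru-let-7e, hhi-let-7j, dre-let-7g and dre-let-7c-5p_1ss19GC, and the left diamond, fish 31, is the lowest noCHO fish in dre-let-7a, fru-let-7e, dre-let-7g and dre-let-7i.

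Other sequences and families that stood higher were of middle or low abundance. ipu-miR-7550_L-1R-1 is only 16 nt long, and it was at 104.6, 64.6, 43.3 and 144.1 CPM in fasted and 102, 282, 440 and 311 CPM in noCHO fish. Fish 20 lay within the fasted range and the other noCHO fish lay well above it. The log2 difference was 1.66 (SE 0.43; adjusted p = 0.369 in edgeR), and 1.097 with the library set as a term. Of the 26 table entries under miR-7550 this was the only one tested. The summed family had a log2 difference of 1.47 (SE 0.43; unadjusted p = 0.00499, adjusted p = 0.504 in edgeR), the lowest p among families, and of 0.93 with the set as a term. DESeq2 called 1 family (0.99%), which was this one. Whether a 16-nt sequence of this name comes from a miRNA hairpin was not analysed here.

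Over all tested families 42 were higher and 59 lower, with a median log2 difference of −0.06, and edgeR called 0. At an unadjusted p under 0.05 there were 5 (4.95%): miR-7550, miR-122, let-7 and miR-456 higher and miR-222 lower. In 2 families (1.98%), miR-122 and miR-456, the lowest noCHO fish was above the highest fasted fish, and in 2 (1.98%), miR-200 and miR-187, the highest noCHO fish was below the lowest fasted fish. The family miR-456 had 224, 209, 207.996 and 284 CPM in fasted and 287, 311, 342 and 315 CPM in noCHO fish (log2 0.44, SE 0.18, unadjusted p = 0.0358). Its lowest noCHO fish, fish 20, lay just above the highest fasted one. The family miR-7, known in vertebrates from pancreatic islets and neurons, was at 76.0 to 110 CPM in fasted and 102 to 157 CPM in noCHO fish (log2 0.51, SE 0.30). In miR-153 a single fish carried the difference: noCHO fish 33 had 67.0 CPM and the other 7 fish had 5.86 to 16.1 CPM (log2 1.23, and 0.059 without fish 33).

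In the miR-181 family, known in mammals from lymphocyte development, all 7 tested sequences were higher on average, with a median log2 difference of 0.37, while the summed family differed by 0.18 (SE 0.17) and by 0.10 without noCHO fish 33. ssa-miR-181a-4-3p had 7.43, 4.79, 7.98 and 5.69 CPM in fasted and 14.7, 13.8, 10.9 and 9.83 CPM in noCHO fish, without overlap (log2 0.90, SE 0.29, unadjusted p = 0.00825). dre-miR-181b-5p_R+1 was at 2880, 2849, 2157 and 2850 CPM in fasted and 3766, 4505, 2861 and 4441 CPM in noCHO fish (log2 0.54, SE 0.19, unadjusted p = 0.0149), and noCHO fish 31 lay within the fasted range. The dominant member, dre-miR-181a-5p, overlapped fully (log2 0.17, SE 0.19). Another low-abundance 3p sequence without overlap was ssa-miR-15a-3p, at 15.5, 14.4, 5.70 and 15.9 CPM in fasted and 29.3, 23.7, 26.3 and 18.2 CPM in noCHO fish (log2 0.87, SE 0.32). The remaining sequences in which every noCHO fish was above every fasted fish were fru-miR-7_R+2, dre-miR-456_1ss22AT, fru-miR-126, ssa-mir-30e-1-p3 and the candidate PC-5p-3943_218, with log2 differences of 0.64, 0.49, 0.25, 0.73 and 0.96.

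**Figure D3:**
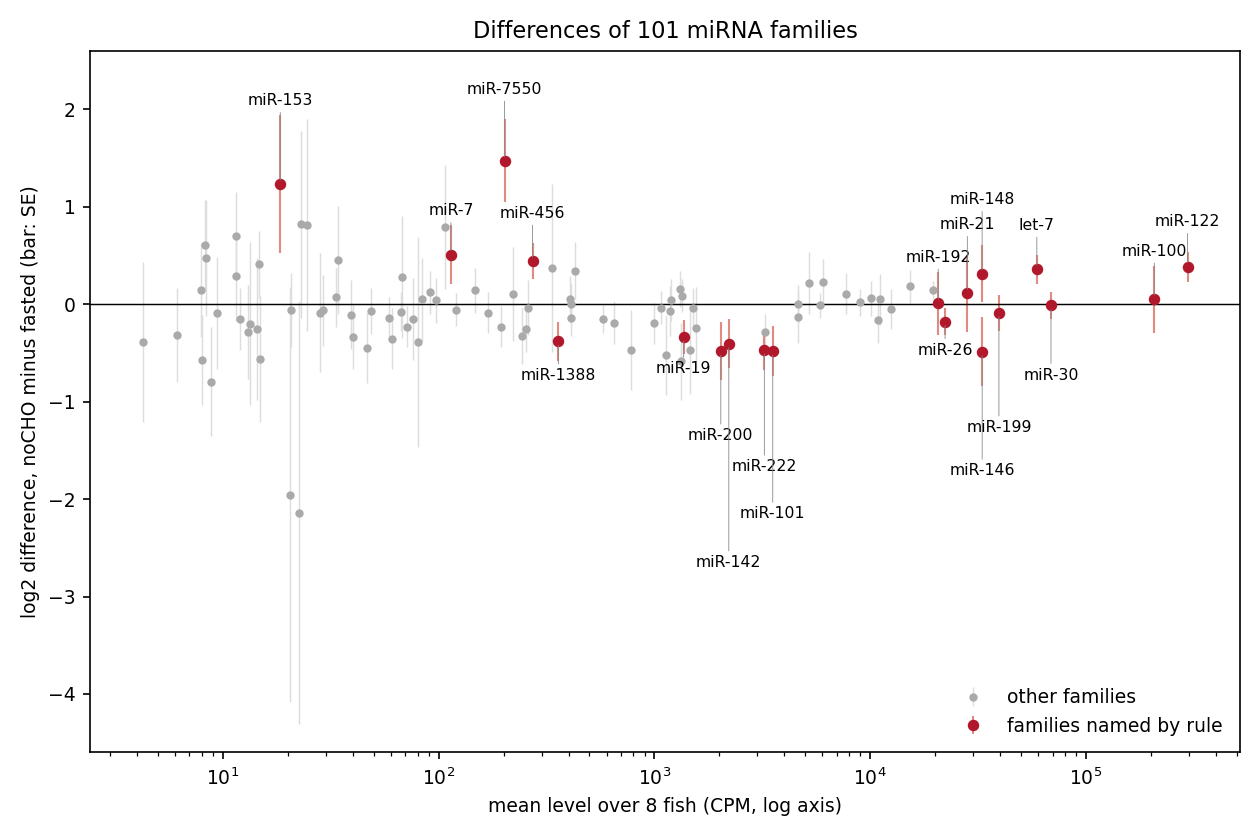
Difference of each tested miRNA family between noCHO and fasted liver (log2, bars are SE) against its mean level over the 8 fish (CPM, log axis); families named by rule are marked. miR-7550 has the largest difference of the families above 100 CPM at 1.47, and miR-122 and let-7 stand at 0.39 and 0.36 at the abundant end, where miR-100 and miR-30 are at 0.05 and −0.01.

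Among the families that stood lower, miR-101 and miR-222 had every tested sequence lower, and so did others such as miR-142, miR-1388 and miR-146. miR-101, known in human cells to target the histone methyltransferase EZH2, was at 4560, 4481, 4398 and 3035 CPM in fasted and 2562, 1860, 4471 and 2906 CPM in noCHO fish. Fish 31 lay at the fasted level and the other noCHO fish lay below every fasted fish. The log2 difference was −0.48 (SE 0.26; unadjusted p = 0.0878 in edgeR), and −0.90 with the library set as a term. It was −0.70 without fish 31 and −0.31 without noCHO fish 21. All 5 tested sequences were lower, on both sides of the hairpin. ola-miR-101b-5p was at 493, 646, 504 and 400 CPM in fasted and 255, 202, 426 and 364 CPM in noCHO fish (log2 −0.71, SE 0.25, unadjusted p = 0.0157). Fish 31 was again the highest noCHO fish there. fru-miR-101b_2ss21AC22GT, the most abundant sequence of the family, had 2748, 2405, 2647 and 1650 CPM in fasted and 1568, 829, 2969 and 1919 CPM in noCHO fish (log2 −0.37, SE 0.33), with wide overlap. ola-miR-101a-5p_1ss12AT stood at 451.3, 485, 422 and 457 CPM in fasted and 434, 284, 301 and 278 CPM in noCHO fish (log2 −0.49, SE 0.20), with only fish 20 in the fasted range.

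miR-222, which in mammals is expressed with miR-221 from 1 cluster and is known from endothelial and proliferating cells, had 4341, 4556, 3037 and 3074 CPM in fasted and 2680, 2465, 3291 and 2404 CPM in noCHO fish. The noCHO fish lay below every fasted fish except fish 31 (log2 −0.47, SE 0.21, unadjusted p = 0.0427, adjusted p = 0.864 in edgeR). All 4 tested sequences were lower, and ssa-miR-222a-3p_R-1 had 3032, 3205, 2096 and 2289 CPM in fasted and 1952, 1713, 2275 and 1760 CPM in noCHO fish (log2 −0.46, SE 0.20). fru-miR-221_R-1, with the same seed, had 3794, 4062, 2782 and 2987 CPM in fasted and 3222, 2870, 2824 and 2618 CPM in noCHO fish and overlapped more (log2 −0.24, SE 0.18). Counts were also summed by seed instead of by family, over all known sequences with a seed, whether or not they passed the filter. This seed, with 4 tested sequences, gave a log2 difference of −0.40 (SE 0.17, unadjusted p = 0.0335 in edgeR). Of 179 seeds 0 passed in edgeR, with 8 at an unadjusted p under 0.05.

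Further families that stood lower were miR-200, miR-1388 and miR-19. miR-200, an epithelial family, had 2081, 1956, 2657 and 2774 CPM in fasted and 1761, 1870, 1639 and 1509 CPM in noCHO fish, without overlap (log2 −0.48, SE 0.30, unadjusted p = 0.129). Its most abundant sequence, fru-miR-200a_R-1, was at 1644, 1520, 2118 and 2211 CPM in fasted and 1586, 1344, 1195 and 1216 CPM in noCHO fish (log2 −0.49, SE 0.25), with fish 20 inside the fasted range, and fru-miR-200b_R+1 overlapped widely (log2 −0.22, SE 0.48). ipu-miR-1388_R-1 was 1 of the 2 sequences in which every noCHO fish was below every fasted fish, at 86.0, 81.4, 80.9 and 96.7 CPM in fasted and 65.4, 68.8, 48.1 and 51.7 CPM in noCHO fish (log2 −0.57, SE 0.23; −0.36 once the set was a term). The other was ssa-miR-30c-5p_R+1_1ss24TC, a 25-nt form of miR-30 at 38.8 to 47.0 CPM in fasted and 32.8 to 38.4 CPM in noCHO fish. Of the 7 miR-19 sequences, part of the proliferation-linked miR-17-92 group in mammals, 6 were lower. ssa-miR-19c-3p_R-1 had 254, 292, 333 and 216.95 CPM in fasted and 190, 147.6, 246 and 240 CPM in noCHO fish (log2 −0.41, SE 0.21; −0.70 once the set was a term), with overlap. The largest negative value of all sequences, −2.94 (SE 1.01) for ola-mir-19a-p3, came from fasted fish 7 and 13 at 35.3 and 25.4 CPM, while the other 6 fish had 0.991 to 3.38 CPM.

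Fish 31 was the highest noCHO fish in a group of families that were chosen after their values had been seen. That their differences from fasted fish were more negative without it follows from this choice. The family miR-29, known in mammals for targeting collagen messenger RNAs, was at 2242, 1252, 1850 and 1028 CPM in fasted and 719, 617, 2025 and 887 CPM in noCHO fish. The log2 difference was −0.58 (SE 0.39) with all fish. Without fish 31 it was −1.04, and no family passed in that fit (lowest adjusted p = 0.361 in edgeR). The other noCHO fish lay below every fasted fish. The difference of miR-29 was −1.25 with the library set as a term, −0.37 without fasted fish 7 and −0.40 without noCHO fish 21. Its main 5p sequence, ssa-miR-29b-2-5p_L-2, had 1384, 639, 919 and 540 CPM in fasted and 413, 249, 996 and 407 CPM in noCHO fish (log2 −0.75, SE 0.40, with −1.33 without fish 31 and −0.49 without fish 7). miR-146, which in human monocytes is induced by inflammatory signals, had 51730, 41379, 32516 and 28444 CPM in fasted and 15704, 22069, 46019 and 26191 CPM in noCHO fish. It differed by −0.49 (SE 0.35), by −0.80 without fish 31 and by −1.03 with the library set as a term, and all 6 tested sequences were lower. Without noCHO fish 20 it differed by −0.29, and without fasted fish 7 by −0.31. ssa-miR-146a-5p, its main sequence, was at 44928, 37718, 29471 and 27087 CPM in fasted and 14322, 19495, 41566 and 26312 CPM in noCHO fish (log2 −0.45, SE 0.35), and only fish 31 lay within the fasted range. ssa-miR-146d-5p overlapped widely (log2 −0.28, SE 0.33).

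The abundant family miR-21, widely raised in injured and dividing mammalian tissue, had a difference whose sign depended on the fish and the scaling used. It was at 29395, 19408, 35937 and 23667 CPM in fasted and 17546, 12049, 57839 and 29530 CPM in noCHO fish, so that fish 31 was the highest and fish 21 the lowest of all 8. Its main sequence, fru-miR-21, followed the same order at 9578 CPM in fish 21 and 51732 CPM in fish 31, and ssa-miR-21a-5p_R-3 differed by 0.48 (SE 0.22), or by 0.096 with the library set as a term. The log2 difference was 0.11 (SE 0.40) with all fish, −0.39 without fish 31, −0.018 without fasted fish 8 and −0.87 with the library set as a term, and it was also negative with scaling to the library total. Without fish 31, 11 families had an unadjusted p under 0.05 in edgeR, 4 higher and 7 lower, and edgeR still called 0. With all fish there were 5 such families, 4 higher and 1 lower. Leaving out each other fish gave 1 (without fasted fish 8) to 8 (without fasted fish 13, 4 higher and 4 lower). For single sequences the number that were lower at that level went from 5 to 12 without fish 31. The number that were higher was 18 both with all fish and without fish 31. These families were described after their values had been seen, and whether fish 31 or its library differs in another way was not tested.

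**Figure D4:**
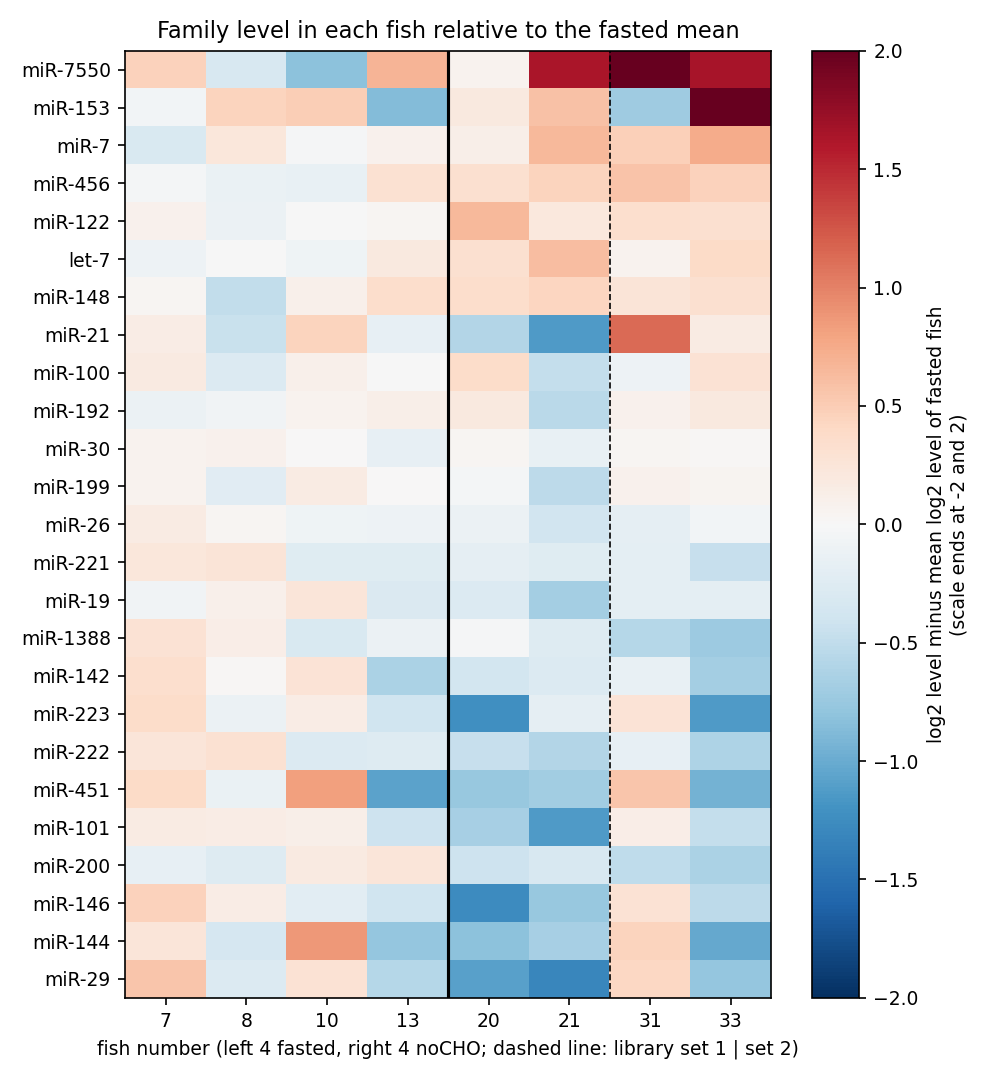
Level of 25 families in each of the 8 fish, as the log2 level minus the mean log2 level of the fasted fish; fish 7 to 13 are fasted and fish 20 to 33 noCHO, and the dashed line parts library set 1 from set 2. Families from miR-19 down are at or below the fasted mean (blue or near white) in noCHO fish 20, 21 and 33, while fish 31 is above it for miR-29, miR-144, miR-146, miR-451 and miR-101.

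The summed erythrocyte and leukocyte markers were highest in fish 31 among the noCHO fish, but within the fasted range. Of the leukocyte families, miR-146 and miR-142 were highest in this fish as well. The families miR-155 and miR-150 were at 34.6 and 121 CPM in noCHO fish 21 and at 20.3 and 102 CPM in fish 31. All 5 erythrocyte sequences (miR-451 and miR-144) were lower on average, with a median log2 difference of −0.32 (−0.68 with the set as a term), and their summed level was 1487 to 4829 CPM in fasted and 1487 to 3804 CPM in noCHO fish. dre-miR-451_R-1, an erythroid miRNA, stood at 1770, 1282, 2473 and 707 CPM in fasted and 898, 886, 2027 and 787 CPM in noCHO fish. fru-miR-144_L+1R-1, from the same cluster in other vertebrates, was at 1286, 855, 1994 and 665 CPM in fasted and 705, 653, 1438 and 573 CPM in noCHO fish. Fish 31 was the highest noCHO fish in both, and the groups overlapped (log2 −0.44, SE 0.41, and −0.51, SE 0.39). Of 13 leukocyte sequences 11 were lower, with a median of −0.33 (−0.39 with the set as a term) and a summed level of 31205 to 52877 CPM in fasted and 19432 to 47317 CPM in noCHO fish, most of it miR-146. The leukocyte miRNA dre-miR-142a-5p had 2413, 1916, 2354 and 1308 CPM in fasted and 1716, 1574, 1696 and 1323 CPM in noCHO fish (log2 −0.34, SE 0.23). The part of blood cells in the values of miR-146, miR-101, miR-222 and miR-29 was not tested.

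Of 20 hepatocyte sequences 11 were higher and 9 lower (median 0.04, and −0.20 with the library set as a term), with miR-122 and miR-148 higher and miR-101 lower. Of the other families on the list, miR-192 had 3 of 4 tested sequences higher and miR-194 had 3 of 4 lower. The family miR-194 differed by −0.245 (SE 0.42), and by −0.32 with the set as a term. dre-miR-148_R-1, abundant in hepatocytes, had 24549, 16640, 26330 and 32566 CPM in fasted and 35438, 34428, 26047 and 33608 CPM in noCHO fish (log2 0.37, SE 0.33), and only fish 20, 21 and 33 lay above the fasted fish. ipu-miR-192, a liver and gut miRNA, overlapped fully (log2 0.075, SE 0.31). The glucose and insulin list had 12 of 26 sequences higher (median −0.03, and −0.16 with the set as a term), led by ssa-miR-26a-5p (log2 −0.11, SE 0.17) and dre-miR-181a-5p. The lipid and cholesterol list had 25 of 40 higher (median 0.07, and 0.08 with the set as a term), and all 3 tested sequences of miR-33, which lies in the SREBP genes of mammals, were lower on average (log2 −0.33 to −0.05). The summed hepatocyte level was 277485 to 338911 CPM in fasted and 351404 to 509424 CPM in noCHO fish. For the lipid and cholesterol list it was 318838 to 350151 CPM and 368350 to 534467 CPM. Neither sum overlapped between the groups, and most of each was miR-122. The summed glucose and insulin level overlapped.

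The list of trout postprandial candidates had 7 of 16 sequences higher (median −0.07). In it ccr-miR-143 had 9909 to 11684 CPM in fasted and 10122 to 12692 CPM in noCHO fish (log2 0.11, SE 0.25). Of miR-17-92 and relatives 11 of 24 were higher (median −0.04), and ssa-miR-92a-3p and ssa-miR-92b-3p had log2 differences of 0.13 and 0.12 (SE 0.13 and 0.22). Of the interferon-induced pair of fish, miR-462 and miR-731, 6 of 7 were lower (median −0.10), with ssa-miR-462a-5p at −0.07 (SE 0.27) and ssa-miR-731-5p at −0.17 (SE 0.21). Endothelial (6 of 12 higher, median −0.0050), fibroblast and smooth muscle (11 of 14, median 0.12), epithelial (3 of 7, median −0.03) and stress and hypoxia sequences (7 of 9, median 0.05) had no member past the threshold. This held for every list, because no sequence passed in edgeR. The summed trout postprandial level, most of it miR-122, was 243979 to 285350 CPM in fasted and 306880 to 453206 CPM in noCHO fish. The summed epithelial level was 1996 to 2929 CPM in fasted and 1667 to 1987 CPM in noCHO fish. Neither sum overlapped between the groups, while the sums of the other lists of this paragraph did. With the library set as a term the medians were −0.06 for the trout postprandial candidates, −0.02 for miR-17-92 and relatives, 0.07 for the interferon-induced pair, 0.05 for the endothelial list and 0.0029 for the fibroblast and smooth muscle list. They were 0.18 for the epithelial list (−0.16 within set 1) and −0.32 for the stress and hypoxia list. ccr-miR-126-3p_L-1R+1 and dre-miR-10c-5p of the endothelial list were at 0.06 and 0.07 (SE 0.15 and 0.23).

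Markers of muscle, pancreas and nerve were low and varied by fish. The 3 muscle sequences summed to 48.9 to 164 CPM in fasted and 107.1 to 342 CPM in noCHO fish, with a median log2 difference of 0.88 (1.27 with the set as a term). dre-miR-499-5p_R-1, which lies in a myosin gene, was at 319 CPM in noCHO fish 20 and at 31.1 to 144.9 CPM in the other 7 fish (log2 0.91, SE 0.65, and 0.098 without fish 20), and dre-miR-1 was at 3.71 to 56.6 CPM. Of 5 pancreas sequences 2 were higher and 3 lower (median −0.34, and −0.11 with the set as a term), and dre-miR-375 was highest in fasted fish 7 at 162 CPM against 44.0 to 91.0 CPM elsewhere. ssa-miR-216b-5p, of pancreatic acinar cells in mammals, was at 78.6 CPM in fasted fish 7 and 19.2 CPM in noCHO fish 20 and at 0.991 to 5.98 CPM in the others. The single neural sequence, dre-miR-9-5p, was at 1.53 to 26.3 CPM (log2 −0.30, SE 0.78; −1.62 once the set was a term).

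By strand, the median difference was near 0 on both arms over all families. Of 132 known 5p sequences 66 were higher and 66 lower (median 0.00), of 120 known 3p sequences 64 were higher and 56 lower (median 0.02), and of 39 without an assigned arm 20 were higher and 19 lower (median 0.02). The candidates gave 13 of 24 on 5p and 15 of 25 on 3p higher. At an unadjusted p under 0.05, 12 of the 132 known 5p sequences were higher and 2 lower, against 4 and 3 of the 120 on 3p. Over all 340 tested sequences 18 (5.29%) were higher and 5 (1.47%) lower at that level. Of the 12 on 5p, 7 were let-7. The 5p arm held 91.4 ± 0.557% of known counts with an arm in fasted and 91.99 ± 0.846% in noCHO fish (SD, n = 4 each; two-sided exact permutation p = 0.257), and fish 21 of the noCHO group was the second lowest of the 8 at 91.0%.

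The balance of the arms within a family was measured as the log2 ratio of 5p to 3p counts in 47 families with enough counts on both arms. The ratio leaned more to 5p in noCHO fish in 29 families and more to 3p in 18, with a median difference of 0.06. Limma called 0, with a smallest adjusted p of 0.630 and 2 (4.26%) at an unadjusted p under 0.05, and 3 (6.38%) had groups without overlap. In 29 families 5p dominated on average and in 18 families 3p did, and in 43 the same arm dominated in all 8 fish. For miR-100, miR-146 and let-7 the log2 ratio differed by 0.39, −0.11 and 0.13 (SE 0.51, 0.27 and 0.23). miR-101 is not among the 47: its most abundant sequences carry no arm in their names and share a seed with no miR-101 sequence whose name gives one, so no 3p counts were assigned.

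The families without overlap were miR-301, miR-462 and miR-222, and in all 3 the noCHO fish had relatively more 5p. In miR-301 the 5p share was 35.7, 22.95, 34.3 and 40.1% in fasted and 46.3, 44.4, 50.4 and 40.6% in noCHO fish. It is the family nearest to an even balance among the 3, and its counts were low, from 14 per fish on 5p and 25 on 3p upward. The log2 ratio differed by 0.74 (SE 0.26; unadjusted p = 0.0134 in limma). In miR-222, whose main strand is 3p, the 5p share was 11.1, 11.1, 11.8 and 12.3% in fasted and 17.1, 15.4, 13.3 and 13.2% in noCHO fish (log2 0.39, SE 0.21, unadjusted p = 0.0824). Its 3 tested 3p sequences had log2 differences of −0.57 to −0.45, and its 5p sequence ipu-miR-222a_1ss11TG differed by −0.06 (SE 0.18).

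In miR-462, a fish-specific family induced by interferon, the log2 ratio was 7.31, 7.14, 7.19 and 7.25 in fasted and 7.77, 7.60, 7.81 and 8.02 in noCHO fish (difference 0.58, SE 0.26, unadjusted p = 0.0441 in limma). With the set as a term the difference was 0.46 (unadjusted p = 0.182 in limma). The rare arm had 24 to 88 counts per fish. ssa-miR-462a-3p had 24.1, 31.1, 36.5 and 33.0 CPM in fasted and 27.1, 22.9, 18.3 and 12.4 CPM in noCHO fish (log2 −0.65, SE 0.30; −0.32 once the set was a term). In miR-200 the ratio was 0.79 (SE 0.38) higher, with 5p counts of 5.5 to 27 per fish. The ratio was lower in miR-24 (−0.48, SE 0.29), miR-29 (−0.41, SE 0.31), in miR-199 (−0.35, SE 0.26) and in miR-194 (−0.24, SE 0.20), all with overlapping groups. Each of these differences rested partly on 1 fish: it was −0.19 in miR-24 without noCHO fish 20, −0.22 in miR-29 without fasted fish 7, −0.16 in miR-199 without noCHO fish 21 and −0.14 in miR-194 without noCHO fish 31. With the set as a term it was −0.74 in miR-24 and −0.028 in miR-194. In miR-24, ssa-miR-24b-5p was at 24.1, 16.8, 31.9 and 19.3 CPM in fasted and 13.5, 15.3, 14.9 and 18.9 CPM in noCHO fish (log2 −0.53, SE 0.26, and −0.35 without fasted fish 10). Fish 20 was far below the others in this ratio at −4.37.

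**Figure D5:**
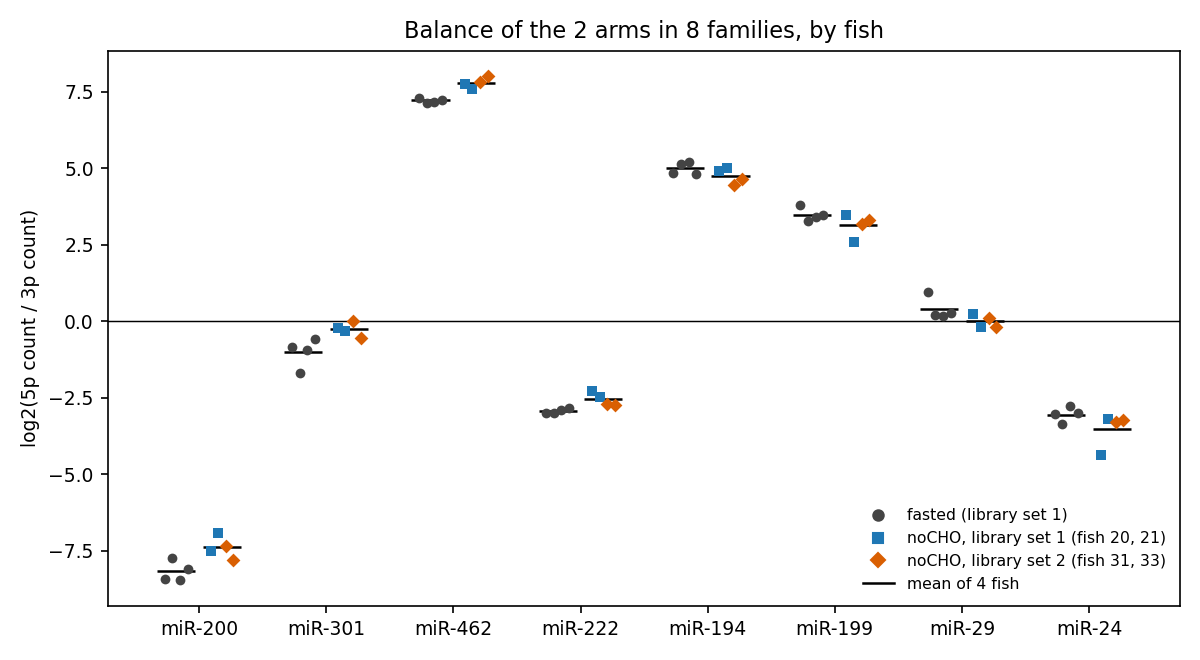
Log2 ratio of 5p to 3p counts in the 8 families named by rule, for each of 4 fasted and 4 noCHO fish, with lines at group means; values above 0 mean more 5p than 3p. The noCHO fish lie above the fasted fish in miR-301, miR-462 and miR-222, and the groups overlap in the other 5 families.

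By abundance, of the 58 sequences of at least 1000 CPM 38 were higher (median 0.08), against 35 of 75 between 100 and 1000 CPM (median −0.03) and 105 of 207 below 100 CPM (median 0.01). Of 7 sequences of 15 to 18 nt 6 were higher (median 0.27), of 78 of 19 to 21 nt 32 were higher (median −0.08), and of those of 22 nt 90 were higher and 62 lower (median 0.06). Sequences of 18 nt or less made up 0.0910 ± 0.00670% of counts in fasted and 0.113 ± 0.0441% in noCHO fish (two-sided exact permutation p = 0.343). The count-weighted mean length was 21.80, 21.79, 21.79 and 21.74 nt in fasted and 21.65, 21.67, 21.77 and 21.73 nt in noCHO fish (two-sided exact permutation p = 0.0571), with fish 31 in the fasted range. Of mappable reads 44.8 ± 1.205% were assigned to the table in fasted and 50.0 ± 4.71% in noCHO fish (SD, n = 4 each; two-sided exact permutation p = 0.114).

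Several abundant families had small differences. miR-100, second in abundance, had 228851, 166852, 217016 and 201224 CPM in fasted and 261409, 145966, 188948 and 246302 CPM in noCHO fish (log2 0.05, SE 0.34). miR-30 was at 61823 to 73298 CPM in fasted and 62277 to 70718 CPM in noCHO fish (log2 −0.01, SE 0.14), and miR-199 and miR-192 differed by −0.09 and 0.01 (SE 0.19 and 0.32). miR-26 was lower in 6 of its 7 sequences, with a family difference of −0.18 (SE 0.14). Fish 21 was the lowest of the 8 in miR-100, miR-199, miR-26 and miR-192.

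The high-carbohydrate group shares the fasted controls, so its values are given only beside those above. Its libraries are all in library set 2 and the fasted libraries all in set 1. Meal and set therefore cannot be told apart between these groups. Its mean family levels (4 fish) were 285501 CPM for miR-122, 71458 CPM for let-7 and 561 CPM for miR-7550, where noCHO fish averaged 334264, 66382 and 297 CPM and fasted fish 255902, 51878 and 106.9 CPM. For miR-101, miR-222 and miR-29 it had 2093, 2681 and 717 CPM, beside noCHO means of 2950, 2710 and 1062 CPM and fasted means of 4118, 3752 and 1593 CPM. For miR-200 it had 4111 CPM against 1695 CPM in noCHO and 2367 CPM in fasted fish. As a percent of all counts, without TMM scaling, miR-122 made up 22.8, 23.6, 30.8 and 28.1% in the high-carbohydrate fish. The fasted fish had 26.9 to 28.9%, so the place of miR-122 between these groups depended on the scaling.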

How the data were processed

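The authors deposited a table with 1 line per miRNA sequence, holding estimated counts per library (reads shared between sequences are divided, and 85.1% of values are whole) and a normalized signal, which per the file headers and values is the count divided by 1 parameter per library, with zeros written as 0.001. The signal was checked and not used for tests. A second deposited table gives read counts per library by processing step. Bowtie 1.1.1 is listed in the submitters' processing notes with no role, and genome build and miRNA database were not known here. No sample columns lay outside the groups (0).

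After rounding, the counts went into the quasi-likelihood test of edgeR 4.0.16 (R 4.3.3) with TMM scaling, after the edgeR expression filter by group, in 1 fit of all 12 libraries with 9 residual degrees of freedom. Tests were two-sided and adjusted by Benjamini-Hochberg over every feature of a level (threshold 0.05), and the F statistic gave each standard error (SE). Families are summed known names with the same number (149 in the table). Arm balances were tested with limma 3.58.1 on log2 ratios with a prior count of 1 and at least 10 counts on both arms in at least 4 libraries. Of 988 known sequences, 707 carry an arm in the name and 137 have none, and the others took it from a family member with the same seed. Composition measures were compared by two-sided exact permutation tests. The fits were tested on simulated data.

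The groups, families and 16 lists were chosen with earlier results of these data known. The rule for names took the 10 sequences with the smallest unadjusted p in each direction, those called by DESeq2 1.42.0, the 10 most abundant, and the 2 most abundant of each list. It also took 6 families and 4 arm balances in each direction and the 10 most abundant families. All other names were chosen after their values were seen. Alternatives were other scalings, filters and tools, the library set as a term or set 1 alone, seeds in place of families, and each fish left out.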

Additional observations from a re-analysis of the deposited data

Results flagged for a closer look

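In 11 of the 174 groups of 4 fish looked at, 1 fish lay far from the other 3 relative to the group's whole range (Dixon's criterion). Chance flags about 1 in 20 groups. Among fasted fish, fish 10 was low in dre-miR-181b-5p_R+1 (2157 CPM against 2849 to 2880 CPM) and in ssa-miR-15a-3p (5.70 against 14.4 to 15.9 CPM). Fasted fish 7 was high in dre-miR-375 (162 against 58.1 to 75.5 CPM) and in the log2 ratio of miR-29 arms (0.96 against 0.17 to 0.28), and fasted fish 13 was low in the miR-101 family (3035 against 4398 to 4560 CPM). Among noCHO fish, fish 31 was high in dre-miR-451_R-1 (2027 against 787 to 898 CPM) and fru-miR-144_L+1R-1 (1438 against 573 to 705 CPM). Fish 20 was high in ola-miR-101a-5p_1ss12AT (434 against 278 to 301 CPM) and low in the log2 ratio of miR-24 arms (−4.37 against −3.29 to −3.19). Fish 33 was high in the miR-153 family (67.0 against 6.58 to 16.1 CPM), and fish 21 was low in the miR-30 family (62277 against 70126 to 70718 CPM).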

How the results depend on the processing

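The count of sequences called was 0 in edgeR with all fish, 4 with no filter, 2 with DESeq2 and 0 to 2 when each fish was left out (2 without noCHO fish 20). For families it was 0, with 1 in DESeq2 and 0 to 1 when each fish was left out (1 without noCHO fish 20), and no alternative called an arm balance. The signs of values near 0 depended on the settings. With scaling to the library total the log2 difference was −0.091 for dre-miR-100-5p, −0.14 for dre-miR-30e-5p_R+2, −0.061 for fru-miR-21, −0.15 for ssa-miR-30b-5p_R-4, −0.15 for ipu-miR-192, −0.033 for dre-miR-181a-5p, −0.081 for ccr-miR-143, −0.061 for ssa-miR-92a-3p, −0.087 for ssa-miR-92b-3p, −0.13 for ccr-miR-126-3p_L-1R+1, −0.14 for dre-miR-10c-5p, −0.097 for the family miR-100, −0.033 for the family miR-21, −0.15 for the family miR-192. Within library set 1 the log2 difference was −0.010 for dre-miR-30e-5p_R+2, −0.90 for fru-miR-21, −0.053 for ipu-miR-192, −0.015 for ssa-miR-92b-3p, 0.16 for ssa-miR-462a-5p, 0.069 for ssa-miR-731-5p, −0.86 for the family miR-21, −0.12 for the family miR-192. With the library set as a term the log2 difference was −0.89 for fru-miR-21, −0.033 for ipu-miR-192, −0.0046 for ssa-miR-92b-3p, 0.18 for ssa-miR-462a-5p, 0.072 for ssa-miR-731-5p, −0.87 for the family miR-21, −0.12 for the family miR-192. The miR-30 family had a positive sign in other settings, at 0.023 (median-ratio scaling), 0.050 (no filter), 0.037 (mean count of at least 100), 0.023 (DESeq2), 0.0087 (only the 2 groups).

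Leaving out each fish gave ranges across 0 for dre-miR-100-5p (−0.0069 to 0.23), dre-miR-30e-5p_R+2 (−0.0082 to 0.11), dre-miR-199-5p (−0.16 to 0.038), fru-miR-21 (−0.49 to 0.35), ssa-miR-30b-5p_R-4 (−0.019 to 0.089), ipu-miR-192 (−0.043 to 0.17), ssa-miR-92b-3p (−0.022 to 0.19), ssa-miR-462a-5p (−0.24 to 0.029), ccr-miR-126-3p_L-1R+1 (−0.0074 to 0.080), dre-miR-10c-5p (−0.048 to 0.095), dre-miR-375 (−0.53 to 0.10), dre-miR-9-5p (−1.40 to 0.28), the family miR-100 (−0.069 to 0.19), the family miR-30 (−0.063 to 0.031), the family miR-199 (−0.16 to 0.035), the family miR-21 (−0.39 to 0.37), the family miR-192 (−0.058 to 0.16). The same held for the difference in percent of adapter reads with inserts under 15 nt (−0.974 to 1.28 percentage points) and the difference in percent known names (−0.00886 to 0.0224). The cause of these turns was not tested. No paired analysis was possible because the groups share no fish numbers. With 1 CPM worth under 1 count in the shallowest library, levels of a few CPM have wide counting error. The counts carry no molecular identifiers, and reads shared by near-identical sequences were divided in a way that is uncertain.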
